A study of Mus musculus with 6 samples.

Results

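The genes described here are the D-type cyclins Ccnd1, Ccnd2 and Ccnd3, their kinases Cdk4 and Cdk6, the CIP/KIP inhibitors Cdkn1b and Cdkn1c, and the INK4 class genes Cdkn2a, Cdkn2c and Cdkn2d. They are 10 of the 22180 genes measured. They were chosen by name, as were the gene lists used below, with earlier results of these data known. Shares of all genes set beside their counts are therefore a description and no test. Each of them was read by a single probe set. They were measured in total RNA of 10000 sorted, GFP-positive, untreated MLL-AF9 leukaemia cells per sample, all on the strain background C57BL/6J. MLL-AF9 is a fusion oncogene of acute myeloid leukaemia and was carried by both groups, 3 arrays of wild-type origin (WT) and 3 arrays of leukaemias with an Evi1 transgene (Evi1 Tg). Evi1 is a zinc finger transcription factor encoded by Mecom. The labels name neither the promoter or species of the transgene nor the age of the mice, and they do not say whether arrays of 1 group stem from different mice. The p-values therefore measure only the spread between these samples. In bulk RNA, fewer cells in a phase of the cycle and less RNA per cell cannot be told apart.

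Passage through the G1 phase is driven by D-type cyclins, which bind Cdk4 or Cdk6 and start the phosphorylation of the retinoblastoma protein, so that E2F factors are set free to switch on genes of S phase. Proteins of the INK4 class bind Cdk4 and Cdk6 and keep D-type cyclins away, whereas CIP/KIP proteins bind whole cyclin and kinase complexes and mainly restrain Cdk2. Cdkn2a encodes both an INK4 protein and ARF, a protein from another reading frame that protects p53 from Mdm2. In MLL-rearranged leukaemia Cdk6 is known as a target of the fusion protein and as a dependency.

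Promoter regions of Cdk4, Cdkn2a and Cdkn2c are shown because these genes had the smallest unadjusted p-values of the set, and because Cdkn2a and Cdkn2c each have more than one start site in RefSeq. The windows hold the 250 bases before a transcription start on the gene's own strand, from RefSeq on GRCm38.p6, and 7 of the 10 genes had a window. Capitals mark the E-box CACGTG and the E2F-like words TTTCGCG, its variant TTTGGCG and its variant TTTCCCG, searched on both strands and not overlapping one another here. Cdk4 lies on the plus strand at chr10:127063285-127063534, the first and the second start of Cdkn2a on the minus strand at chr4:89294620-89294869 and chr4:89282193-89282442, and those of Cdkn2c on the minus strand at chr4:109666757-109667006 and chr4:109665373-109665622.
Cdk4: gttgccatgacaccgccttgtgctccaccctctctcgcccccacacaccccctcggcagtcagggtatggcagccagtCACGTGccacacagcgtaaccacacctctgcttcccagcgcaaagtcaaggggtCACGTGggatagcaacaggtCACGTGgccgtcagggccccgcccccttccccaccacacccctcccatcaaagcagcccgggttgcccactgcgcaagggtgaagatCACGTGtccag
Cdkn2a, first start: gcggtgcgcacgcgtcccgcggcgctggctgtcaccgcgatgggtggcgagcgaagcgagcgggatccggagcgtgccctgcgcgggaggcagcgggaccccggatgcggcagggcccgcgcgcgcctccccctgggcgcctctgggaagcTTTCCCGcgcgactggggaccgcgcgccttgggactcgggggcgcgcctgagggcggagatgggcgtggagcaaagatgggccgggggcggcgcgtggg
Cdkn2a, second start: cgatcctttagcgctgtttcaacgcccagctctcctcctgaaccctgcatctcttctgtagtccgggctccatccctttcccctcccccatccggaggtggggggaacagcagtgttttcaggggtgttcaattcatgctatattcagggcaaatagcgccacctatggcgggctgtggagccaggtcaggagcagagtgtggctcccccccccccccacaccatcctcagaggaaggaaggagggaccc
Cdkn2c, first start: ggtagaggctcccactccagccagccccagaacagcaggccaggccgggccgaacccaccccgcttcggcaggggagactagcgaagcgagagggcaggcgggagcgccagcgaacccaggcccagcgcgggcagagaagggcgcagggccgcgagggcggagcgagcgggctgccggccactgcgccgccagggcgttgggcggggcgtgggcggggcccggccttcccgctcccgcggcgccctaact
Cdkn2c, second start: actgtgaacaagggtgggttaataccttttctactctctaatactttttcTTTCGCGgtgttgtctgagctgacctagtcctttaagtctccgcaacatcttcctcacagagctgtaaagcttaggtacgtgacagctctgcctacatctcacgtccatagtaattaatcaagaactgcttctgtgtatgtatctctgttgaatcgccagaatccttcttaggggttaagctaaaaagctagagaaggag

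The Cdk4 window held CACGTG 4 times, beginning 172, 118, 98 and 11 bases before the start. CACGTG is the word that Myc and its relatives are known to bind. It stood at least once in 6.02% of the 32851 windows in the table, and 7 windows, or 0.0213%, held it 4 times or more. The Cdk6 window held it 1 time, and the windows of the other members not at all. An E2F-like word stood in 4.57% of all windows. Among the members it was found before the first start of Cdkn2a (TTTCCCG, 99 bases before the start) and before the second start of Cdkn2c (TTTCGCG, 200 bases before). The first Cdkn2a start is that of ARF and the second that of INK4a. These matches describe letters only, and binding was not measured.

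No member passed the threshold, which was a Benjamini-Hochberg adjusted p under 0.05 by limma over all genes. The count of 0 of 10 stood against 0.113% of all genes (23 lower and 2 higher in Evi1 Tg). The differences that stood out were of opposite sign within the INK4 class, with a lower signal of Cdkn2a and a higher signal of Cdkn2c in Evi1 Tg, and Cdk4 had a smaller difference upward. At an unadjusted limma p under 0.05 these 3 of 10 members were found, against 10.3% of all genes. The 3 arrays of one group lay wholly apart from those of the other for 2 of 10 members, Cdkn2a and Cdkn2c, against 14.6% of all genes. The log2 difference, always taken as Evi1 Tg minus WT, was above 0 for 8 of 10 members, against 53.5% of all genes, and its median was 0.12 over the members and 0.012 over all genes. With single arrays left out the members' median ran from 0.046 (without Evi1 Tg 3) to 0.16 (without Evi1 Tg 2), and it was 0.074 without WT 1.

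**Figure D1:**
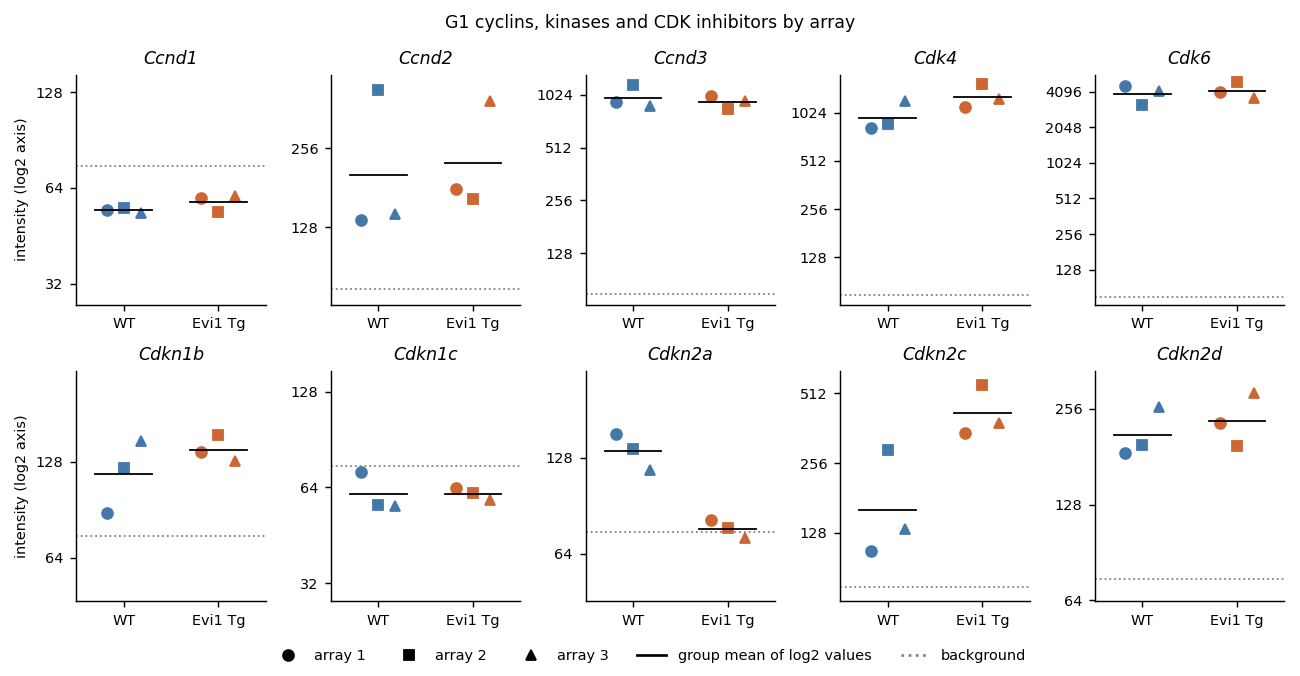
Intensity of each gene on the 3 WT arrays (blue) and the 3 Evi1 Tg arrays (orange), on a log2 axis that differs between panels; black bars are group means of the log2 values and the dotted line is the background intensity of 74.7. Cdkn2a and Cdkn2c have groups that do not overlap, and Ccnd2 is high on 1 array of each group (WT 2 and Evi1 Tg 3).

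Signal was judged against the 90th percentile of 80 measured genes that are silent in blood cells, an intensity of 74.7. Of all genes, 44.8% had a mean above it. Among the members 8 of 10 did, and Ccnd1 and Cdkn1c did not. Intensities depend on the probes, so levels of different genes are not ranked. The arrays had median intensities between 51.6 and 55.4 over 34351 probe sets, and correlations across genes were 0.972 to 0.992 between arrays, where genes are not independent replicates. Mecom itself was below background in both groups (means of 36.9 and 38.6, limma adjusted p = 0.890). It does not check the labels, since a transgene can escape its probes. The cells carried the markers of their labelled type, with 13 of 13 leukaemia and myeloid genes above background. Of the markers of other lineages, 0 of 8 T cell genes, 0 of 8 B cell genes, 0 of 5 erythroid genes, 3 of 6 megakaryocyte genes and 2 of 10 stromal and endothelial genes were above it.

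Cyclin D2 was the member with the widest spread within groups. Ccnd2 had intensities of 137, 426 and 144 on WT 1, 2 and 3 and of 179, 164 and 387 on Evi1 Tg 1, 2 and 3. WT 2 and Evi1 Tg 3 were high and the other 4 arrays were low, so that the groups overlapped fully. Its pooled SD within groups was 0.81 on the log2 scale, larger than that of 99.4% of genes above background. The difference of 0.14 had a 95% interval from -1.05 to 1.33 (SE 0.505, n = 3 per group, limma adjusted p = 0.964), which leaves a change of more than 2-fold either way within reach. The 3 genes above background whose log2 values followed Ccnd2 most closely over the 6 arrays were Havcr2 (r = 0.993), which encodes the immune receptor TIM-3, 6820431F20Rik (r = 0.988) and Tst (r = 0.983), a mitochondrial sulphurtransferase. Havcr2 read 62.5, 106 and 61.3 on the WT arrays and 67.5, 68.8 and 107 on the Evi1 Tg arrays, with the same 2 arrays high. Ccnd2 was picked for this list after its values were seen, and best matches among so many genes over 6 arrays are a description only.

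Cyclin D3, the D-type cyclin often prominent in maturing blood cells, read 928, 1163 and 883 on the WT arrays and 1007, 854 and 940 on the Evi1 Tg arrays. The groups overlapped, and WT 2 was the highest array. The difference of Ccnd3 was -0.080 (95% interval -0.38 to 0.22, limma adjusted p = 0.908). Cyclin D1, which acts mainly outside the blood lineage, stayed below background on all arrays, with intensities of 53.5 to 55.4 in WT and 53.9 to 60.4 in Evi1 Tg. Its difference was 0.086 (limma adjusted p = 0.818), between values that lie at background.

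The kinase Cdk4 read 824, 871 and 1210 on WT 1, 2 and 3 and 1110, 1544 and 1254 on Evi1 Tg 1, 2 and 3. WT 1 and WT 2 were the lowest arrays, and WT 3 lay between Evi1 Tg 1 and Evi1 Tg 3, so the groups overlapped. The difference of Cdk4 was 0.44 (95% interval 0.0061 to 0.86, SE 0.182, limma adjusted p = 0.480), a ratio of 1.35. Cdk4 reached an unadjusted limma p under 0.05 in 7 of 15 alternatives, and not with each array centred on its median. Without WT 3 its difference was 0.61 (SE 0.148, limma adjusted p = 0.0973). Tspan31, the next measured gene beside Cdk4 on chromosome 10, had a difference of -0.20 (limma adjusted p = 0.470), of the opposite sign.

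Cdk6, whose kinase serves the same D-type cyclins, gave strong signal on all arrays. It read 4531, 3129 and 4164 on the WT arrays and 4026, 4971 and 3637 on the Evi1 Tg arrays. WT 2 and Evi1 Tg 3, the arrays with high Ccnd2, had the lowest Cdk6 values. The difference of Cdk6 was 0.10 (95% interval -0.31 to 0.51, limma adjusted p = 0.918). The interval reaches up to a ratio of 1.42, so a change in Cdk6 of 2-fold lies outside it. Whether Cdk4 and Cdk6 differed from each other in response was not tested.

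**Figure D2:**
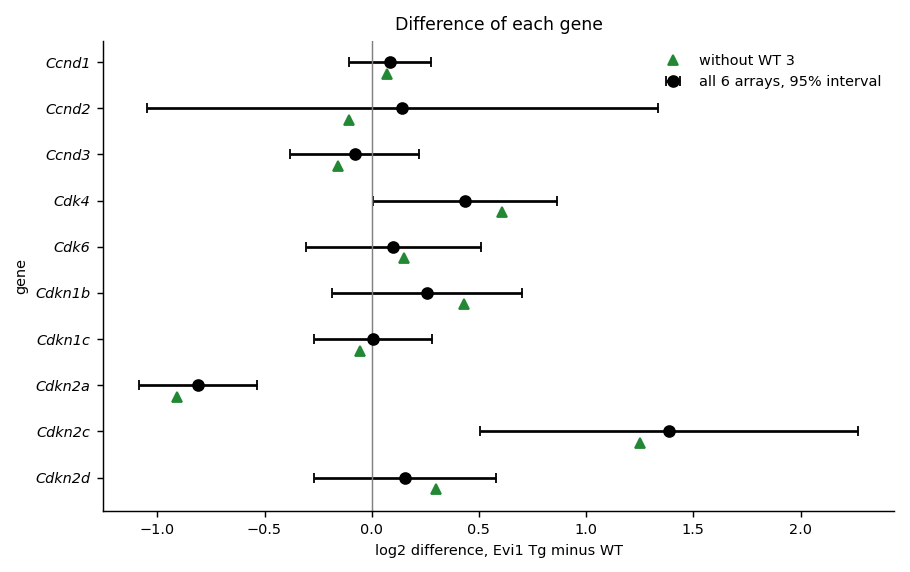
Log2 difference of each gene, Evi1 Tg minus WT, with the moderated 95% interval from limma for 3 against 3 arrays (black) and the difference with WT 3 left out (green triangles). The intervals of Cdkn2a (-1.08 to -0.53), Cdkn2c (0.50 to 2.27) and Cdk4 (0.0061 to 0.86) do not reach 0, before adjustment over all genes, and the interval of Ccnd2 is the widest of the 10.

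Among the CIP/KIP inhibitors, Cdkn1b, which encodes p27, read 88.5, 122 and 149 on the WT arrays and 137, 155 and 129 on the Evi1 Tg arrays. WT 1 was the lowest array, while WT 3 fell inside the Evi1 Tg range. The difference of Cdkn1b was 0.26 (95% interval -0.19 to 0.70, SE 0.188, limma adjusted p = 0.739), 0.43 without WT 3 (limma adjusted p = 0.241) and 0.055 without WT 1 (adjusted p = 0.966). Lockd, a long noncoding RNA named for its place downstream of Cdkn1b and the next measured gene on chromosome 6, read 94.7, 102 and 128 on the WT arrays and 167, 157 and 174 on the Evi1 Tg arrays. The groups of Lockd did not overlap, and its difference was 0.63 (SE 0.126, limma adjusted p = 0.171). Cdkn1c, an imprinted gene that encodes p57 and is known from quiescent stem cells, was below background on all 6 arrays, between 56.0 and 71.6 in WT and between 58.4 and 63.8 in Evi1 Tg. Its difference was 0.0050 (limma adjusted p = 0.996).

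Cdkn2a had the smallest p of the 10 genes. Its intensities were 152, 137 and 117 on WT 1, 2 and 3 and 81.8, 76.7 and 71.7 on Evi1 Tg 1, 2 and 3. All WT arrays were higher than all Evi1 Tg arrays. The difference was -0.81 (95% interval -1.08 to -0.53, SE 0.116, n = 3 per group, limma adjusted p = 0.0772), so WT exceeded Evi1 Tg by a ratio of 1.75. The Evi1 Tg mean of 76.7 lay close to the background of 74.7, and background therefore limits how large this difference can appear. Cdkn2a passed the threshold without WT 3 (-0.91, limma adjusted p = 0.0201) and with array weights (-0.85, limma adjusted p = 0.0323), and in none of the other 13 alternatives, where the adjusted p reached up to 0.350. The exact two-sided permutation p was 0.1, the smallest that 3 against 3 arrays allow. A single probe set reads the locus, so INK4a and ARF transcripts, which start at the 2 sites printed above, are not told apart.

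The nearest measured neighbours of Cdkn2a on chromosome 4, Cdkn2b and Mtap, had smaller differences, with overlapping groups. The next genes outward, Wincr1 and Dmrta1, were below background, with differences of -0.090 and 0.076. The groups of Dmrta1 did not overlap, in the direction opposite to Cdkn2a (r = -0.857). Cdkn2b, which encodes a further INK4 protein, read 111, 111 and 96.0 on the WT arrays and 102, 101 and 94.6 on the Evi1 Tg arrays (difference -0.095, limma adjusted p = 0.823), and followed Cdkn2a in part (r = 0.725 over 6 arrays). Mtap, an enzyme of methionine salvage on the other side, had a difference of 0.17 (limma adjusted p = 0.893), its WT 3 array was the highest of the 6 at 714, and its r with Cdkn2a was -0.472. The genes above background with the pattern most like Cdkn2a over the 6 arrays were Fbxo25 (r = 0.991), a subunit of a ubiquitin ligase, Tor4a (r = 0.989) and the tyrosine phosphatase Ptpn1 (r = 0.989). Ptpn1 read 635, 518 and 489 on the WT arrays and 373, 341 and 331 on the Evi1 Tg arrays, apart in the direction of Cdkn2a. These genes were picked for their likeness to Cdkn2a, so this separation follows from the choice and is a description only.

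Cdkn2c, which encodes the INK4 protein p18, had the largest difference of the 10 genes. It read 106, 292 and 133 on WT 1, 2 and 3 and 347, 557 and 382 on Evi1 Tg 1, 2 and 3. All Evi1 Tg arrays were higher than all WT arrays, but WT 2 lay much nearer to Evi1 Tg 1 than to the other WT arrays. The difference was 1.39 (95% interval 0.50 to 2.27, SE 0.374, n = 3 per group, limma adjusted p = 0.260). As a ratio the interval ran from 1.42 to 4.82. The exact two-sided permutation p was 0.1. Without WT 2 the difference of Cdkn2c was 1.82 (limma adjusted p = 0.0575), and without WT 1 it was 1.09 (adjusted p = 0.563).

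The nearest measured gene on each side of Cdkn2c on chromosome 4 shared its order of arrays in part. Faf1, which encodes a FAS-associated factor, read 425, 522 and 432 on the WT arrays and 541, 698 and 548 on the Evi1 Tg arrays. The 6 arrays stood in the same order for Faf1 as for Cdkn2c (r = 0.957 over 6 arrays), with a smaller difference of 0.37 (SE 0.135, limma adjusted p = 0.412). On the other side, 9630013D21Rik read 65.4, 128 and 50.9 on the WT arrays and 101, 131 and 86.6 on the Evi1 Tg arrays (r = 0.838), with WT 2 and Evi1 Tg 2 as its highest arrays. The next genes outward were below background. Of these, Dmrta2 ran opposite to Cdkn2c (r = -0.811, difference -0.14), and 4930522H14Rik had an r of 0.492. Of the 39 genes next to a member, counting up to 2 measured genes on each side, Faf1 was the only one with the array order of its member. Neighbours were added after their values were seen, and the share of all genes with such an order is not given here. By pattern alone, the genes most like Cdkn2c were Ncdn (r = 0.987), also on chromosome 4, Tmco6 (r = 0.987) and Mrps18a (r = 0.986). They too were picked for that likeness and are a description only.

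**Figure D3:**
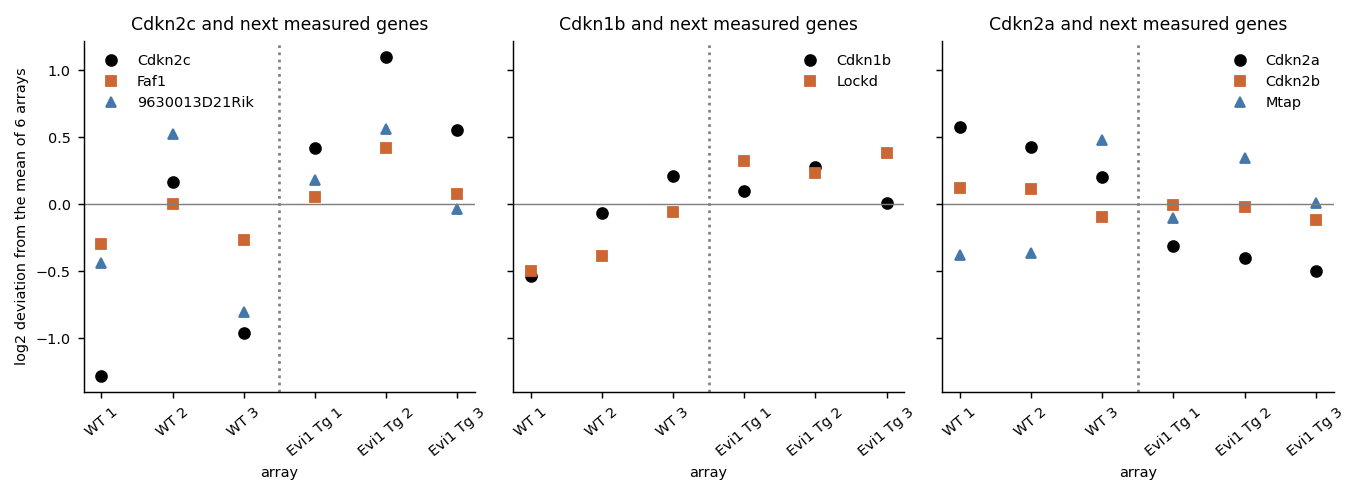
Log2 deviation of each gene from its own mean over the 6 arrays, for Cdkn2c, Cdkn1b and Cdkn2a (black) and genes measured next to them (colours); the dotted line parts WT from Evi1 Tg. Faf1 keeps the array order of Cdkn2c, Lockd is higher on all Evi1 Tg arrays, and next to Cdkn2a, Cdkn2b follows it with a smaller spread (r = 0.725) while Mtap does not (r = -0.472).

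Cdkn2d, which encodes the INK4 protein p19, read 185, 196 and 259 on the WT arrays and 232, 195 and 287 on the Evi1 Tg arrays. The groups overlapped, and WT 3 was the second highest array. The difference of Cdkn2d was 0.15 (95% interval -0.27 to 0.58, limma adjusted p = 0.861), and it ran from 0.0098 without Evi1 Tg 3 to 0.30 without WT 3. Among the INK4 class members the differences were thus -0.81, 1.39 and 0.15 for Cdkn2a, Cdkn2c and Cdkn2d, 1 below and 2 above 0. Cdkn2b, an INK4 gene outside the chosen set, had a difference of -0.095.

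The partners of these genes in the G1 and S phases were followed in 8 lists with 117 measured genes. Over all genes tested 0 of 117 passed. At an unadjusted limma p under 0.05 there were 22 higher, against 4.50% of all genes, and 8 lower, against 5.80%. The count of each list at that level is to be read beside the same shares. The list of pocket proteins and E2F factors also holds Tfdp1, Tfdp2, Lin9, Lin37, Lin52 and Lin54. Of its genes 3 of 17 were higher and 1 lower at that level, with a median difference of 0.31. That median was 0.14 without WT 1, 0.20 without WT 2 and 0.51 without WT 3. E2f4, a factor best known as a repressor bound to pocket proteins, read 839, 932 and 923 on the WT arrays and 1406, 1562 and 1334 on the Evi1 Tg arrays (difference 0.67, SE 0.0945, limma adjusted p = 0.0772). E2f2 had a difference of 0.45, E2f5 of 0.54 and the pocket protein Rbl2 of -0.20 (limma adjusted p = 0.324, 0.417 and 0.479).

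The kinase step that follows Cdk4 and Cdk6 is that of cyclin E and cyclin A with Cdk2. In that list 2 of 7 genes were higher and 0 lower at an unadjusted limma p under 0.05. Cdk2 read 543, 709 and 951 on the WT arrays and 899, 1081 and 1100 on the Evi1 Tg arrays (difference 0.52, limma adjusted p = 0.445), and Ccna2, which encodes cyclin A2, had a difference of 0.67 (adjusted p = 0.444). WT 3 was inside the range of the Evi1 Tg arrays in both. Of the inhibitor partners and turnover genes, 1 of 9 was higher and 1 lower. Cdkn1a, which encodes the p53-induced inhibitor p21, read 2793, 2252 and 2656 on the WT arrays and 1904, 1714 and 1867 on the Evi1 Tg arrays, with no overlap (difference -0.48, SE 0.106, limma adjusted p = 0.195). Fbxw7, which marks cyclin E for destruction, had a difference of 0.29 (limma adjusted p = 0.438).

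Among upstream regulators, 1 of 19 was higher and 2 lower at an unadjusted limma p under 0.05. Mdm2, which ARF inhibits and p53 induces, had a difference of -0.48 (limma adjusted p = 0.236), and Foxo3, an activator of Cdkn1b in other systems, of -0.43 (adjusted p = 0.335). Both had groups that did not overlap. Men1, which encodes the MLL cofactor menin, had a difference of 0.38 (adjusted p = 0.423). For turnover and assembly of D-type cyclins the count was 0 of 9 higher and 1 lower, the deubiquitinase Usp2 (-0.31, limma adjusted p = 0.430). Of the other cyclins and kinases 1 of 19 was higher, Ccnk (0.28), and 3 were lower, Ccng2 (-0.55), Ccng1 (-0.45) and Ccnl2 (-0.29), with limma adjusted p-values from 0.255 to 0.418.

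The lists downstream of E2F release lay above 0 as groups. All 19 of 19 measured E2F targets of S phase entry had a difference above 0, against 53.5% of all genes. Their median was 0.59, with 5 higher and 0 lower at an unadjusted limma p under 0.05, against 4.50% and 5.80% of all genes. All 19 of 19 mitosis genes were above 0 too (median 0.57, 9 higher and 0 lower). Without WT 3 the medians were 0.95 and 0.88, and with any other single array left out they were 0.40 to 0.67 for the E2F targets and 0.41 to 0.63 for mitosis. These list medians rest on genes that move together from array to array and carry no test. Mcm6 and Mcm2, subunits of the replicative helicase, had differences of 0.67 and 0.80 (limma adjusted p = 0.367 and 0.418), and the mitotic activator Cdc20 and kinase Plk1 had 0.73 and 0.66 (0.242 and 0.339).

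WT 3 stood with the Evi1 Tg arrays in these lists. The median log2 deviation of the E2F targets from their mean over the 6 arrays was -0.69, -0.58 and 0.36 on WT 1, 2 and 3 and 0.16, 0.38 and 0.34 on Evi1 Tg 1, 2 and 3. Mitosis genes gave -0.49, -0.68 and 0.28 on the WT arrays, compared with 0.25, 0.26 and 0.43 on the Evi1 Tg arrays. Cdk4 had the lowest values on WT 1 and WT 2, like both lists, and was higher on WT 3. Cdkn2a and Cdkn2c did not place WT 3 among the Evi1 Tg arrays. Over the 10 members WT 3 lay within the range of the Evi1 Tg arrays for 5, WT 1 for 3 and WT 2 for 2, against 41.6%, 42.9% and 41.5% of all genes. The part of proliferation in the member differences was not tested.

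**Figure D4:**
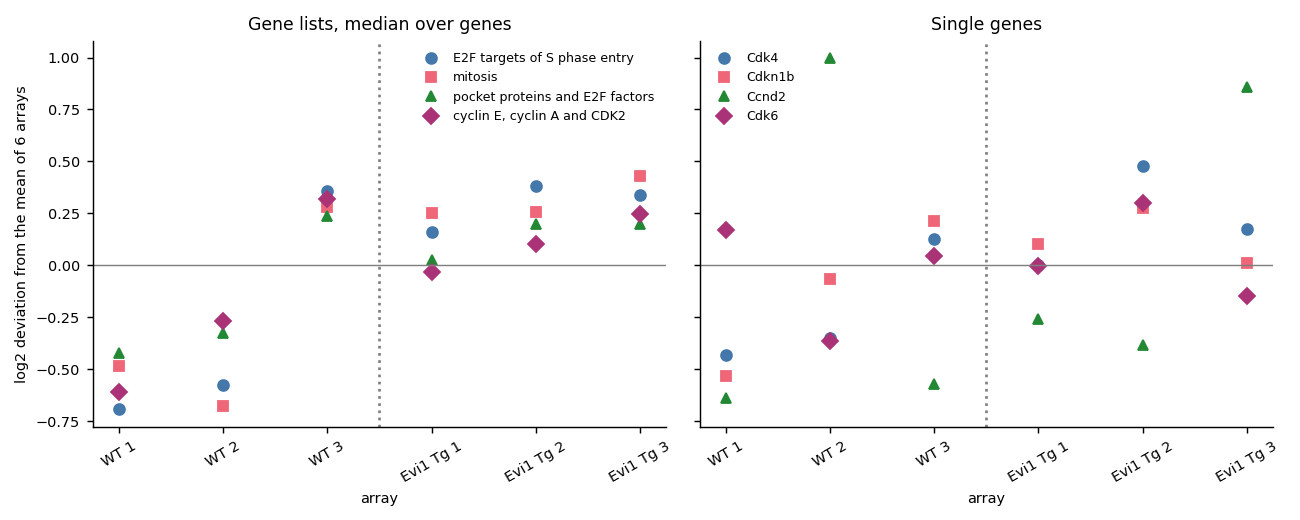
Log2 deviation from the mean over the 6 arrays, as the median over the genes of 4 lists (left) and for Cdk4, Cdkn1b, Ccnd2 and Cdk6 (right); the dotted line parts WT from Evi1 Tg. WT 3 lies with the Evi1 Tg arrays in the lists, while Ccnd2 is high on WT 2 and Evi1 Tg 3.

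With WT 3 left out, 43 of the 117 partner genes were higher and 0 lower at a limma adjusted p under 0.05, against 1.73% and 0.780% of all genes. These were 16 of 19 E2F targets, 16 of 19 mitosis genes and 2 of 7 in the list of cyclin E, cyclin A and CDK2. In the list of pocket proteins and E2F factors they were 7 of 17, Lin9 and Lin54 among them. The inhibitor partners, the upstream regulators and the other cyclins and kinases had 1 gene each. Cdk1 is counted in both lists that hold it, mitosis and the other cyclins and kinases. Leaving out any other single array, or none, gave 0 of 117. WT 3 was the WT array that stood with the Evi1 Tg arrays in the E2F target and mitosis lists. Without it only WT 1 and WT 2 remained, the low arrays of those lists. More calls there follow from dropping that array, so these counts are a description only. Among the members, Cdkn2a alone passed without WT 3, as given above, and 0 of the D-type cyclins and their kinases did.

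Some markers of cell state differed along with the groups without passing the test. Kit, the receptor for stem cell factor, read 90.6, 113 and 112 on the WT arrays and 211, 219 and 316 on the Evi1 Tg arrays (difference 1.22, limma adjusted p = 0.0772). Mpo, the myeloperoxidase of early granulocytic cells, read 92.7, 68.1 and 253 on the WT arrays and 1192, 863 and 525 on the Evi1 Tg arrays (difference 2.80, limma adjusted p = 0.139). Both had groups that did not overlap, and WT 3 had the highest Mpo of the WT arrays. Of the 13 leukaemia and myeloid markers 4 were higher and 2 lower at an unadjusted limma p under 0.05, against 4.50% and 5.80% of all genes. A difference above 0 was found for 6, against 53.5%, and groups that did not overlap for 6, against 14.6%. The median difference was -0.020. Besides Kit and Mpo, the 2 other higher genes were the neutrophil elastase gene Elane (0.44, limma adjusted p = 0.310) and Meis1, a homeobox partner of Hox factors in MLL leukaemia (0.85, adjusted p = 0.328). The lower ones were Csf3r, the G-CSF receptor (-0.55, limma adjusted p = 0.367), and Ptprc, which encodes CD45 (-0.39, adjusted p = 0.418). Of the 10 stromal and endothelial markers 1 was higher and 1 lower at that level. Pdgfrb, a receptor of mesenchymal cells, read 56.0, 84.0 and 74.6 on the WT arrays and 129, 140 and 103 on the Evi1 Tg arrays (difference 0.80, limma adjusted p = 0.195). Its WT mean of 70.5 lay under the background of 74.7. Lepr, below background, had a difference of -0.56 (limma adjusted p = 0.144). The summed intensity of these 10 was 673 to 1006 in WT and 707 to 819 in Evi1 Tg. The summed intensity of the 13 leukaemia and myeloid markers was 15896 to 21012 in WT and 18715 to 21703 in Evi1 Tg. That of the 6 megakaryocyte markers was 361 to 732 in WT and 370 to 475 in Evi1 Tg, with Pf4 at 155, 208 and 70.5 on the WT arrays and 52.7, 76.4 and 74.1 on the others. The part of these markers in the differences of Cdkn2a, Cdkn2c and Cdk4 was not tested.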

How the data were processed

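Per the labels, cDNA of sorted cells was biotinylated and read on 1 array per sample. The deposited table holds intensity values of probe sets, which appear linear. How the authors corrected background, normalized and summarised them is not stated in the labels, and scaling of arrays to each other may mask shifts common to most genes. Names came from the platform annotation. Of 34351 probe sets, 23521 had 1 symbol, and the brightest by mean represented each of 22180 genes. The log2 of each value, with neither pseudocount nor filter, entered limma 3.58.1 (lmFit, eBayes; R 4.3.3) for the contrast of Evi1 Tg with WT over all 6 arrays. P-values were adjusted by Benjamini-Hochberg across the whole table. The procedure was run on simulated data with independent noise for each gene. Those data held no shift shared by many genes of an array, such as that of WT 3. Plots were made in matplotlib 3.10.9.

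The members, gene lists and tests were chosen with earlier results of these data known. Named genes were the members, Mecom, up to 4 genes per direction of a described list by smallest unadjusted p under 0.05, and the 3 genes most correlated with the member of smallest p and with that of largest SD. Neighbouring genes and the matches of Ccnd2 were added after their values were seen. Alternatives changed the scaling (quantile, median), the filter on dim genes, the eBayes settings (trend, robust), array weights, the block by replicate number, averaging of probe sets, a pseudocount of 16 and averaging of Evi1 Tg 1 and 2, or left out each array.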

Additional observations from a re-analysis of the deposited data

How the results depend on the processing

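Of the members, Cdk4, Cdkn1b, Cdkn2a, Cdkn2c and Cdkn2d kept the sign of their difference in all 15 alternatives, and Ccnd1 in all 14 that kept it. Cdkn2a and Cdkn2c stayed at an unadjusted limma p under 0.05 in all 15. With array weights 1 member (Cdkn2a) and 1 partner gene (E2f4) passed. Leaving out single arrays gave 0 to 1 members, 0 to 43 partner genes and 2 to 556 of all genes past the threshold. The highest of each came without WT 3. Over all genes 25 passed, 38 with trend and robust settings, 114 with array weights, 9 with a replicate block, 9 with a pseudocount of 16 and 6 with Evi1 Tg 1 and 2 averaged. The difference of Cdkn1c, below background, turned to -0.0097 with quantile normalization, -0.0085 with median centring, -0.044 with array weights and -0.011 with Evi1 Tg 1 and 2 averaged, and ran from -0.055 to 0.12 with single arrays left out. The corresponding ranges were -0.25 to 0.68 for Ccnd2, -0.16 to 0.041 for Ccnd3 and -0.057 to 0.21 for Cdk6. The causes were not tested. Deviations of same-numbered arrays from their group means correlated at 0.189, -0.185 and 0.061, and 1 of 3 WT arrays matched its own number best. With 3 arrays per group these values cannot decide whether the numbers pair the samples. With the replicate block 0 members passed, and the adjusted p was 0.116 for Cdkn2a and 0.140 for Cdkn2c. Each member had 1 probe set, so no other probe set could be tried.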
